A study of Homo sapiens with 6 samples.

Results

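The replication and mitosis genes described here are 48 genes that carry out the copying of DNA and the division of the cell. They came from a list of names by function, with no threshold on measured values, as 19 S-phase genes and 29 mitotic genes. The list was chosen with earlier results of these data known. All 48 were among the 28092 genes of the deposited table, and all 48 were among the 19558 genes with enough counts to be tested. The cells were cardiomyocytes made from the human embryonic stem cell line H9, and their mRNA was sequenced in 3 wild-type samples (WT1 to WT3) and 3 samples with a knockout of ADPRHL1 (KO1 to KO3). Both groups were collected within 3 days of being re-seeded. ADPRHL1 encodes a heart-enriched pseudoenzyme of the ADP-ribosylhydrolase family, and the study asked how its loss affects the contacts that cells form with their matrix. The sources used here do not give the number of knockout clones or say whether the samples came from separate cultures, so every p-value rests on the spread among these 6 samples alone, which may be technical.

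Before S phase, origins of replication are licensed when CDC6 and CDT1 help load the MCM helicase onto DNA, and the loaded helicase is later activated and copies are made by DNA polymerases supplied with nucleotides. Mitosis is then started by CDK1 with its cyclins, while the spindle, the kinetochores and the cytokinesis machinery separate the chromosomes and the daughter cells. Heart muscle cells leave the cell cycle largely as they mature, and cultures of stem cell derived cardiomyocytes keep a fraction of cycling cells. In bulk RNA such as this, fewer cycling cells and less RNA of these genes per cell cannot be told apart.

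Levels are given as CPM (counts scaled to the library size and TMM factor of the sample), which compare 1 gene between samples, and as FPKM, which is per length and compares genes. Changes are log2 fold changes, knockout minus wild type, with their standard error, from the quasi-likelihood test of edgeR, with p-values adjusted by Benjamini-Hochberg over all 19558 genes, and a gene is called at an adjusted p below 0.05. Depth was 21179650 to 21405718 estimated counts per sample, so 3 counts stood for 0.140 to 0.142 CPM. ADPRHL1 itself was at 83.7, 79.6 and 79.4 CPM in wild type and at 6.399, 5.81 and 7.56 CPM in knockout, the direction that the labels give.

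Most mitotic genes were lower in the knockout and S-phase genes were divided. Of 29 mitotic genes 24 were called lower, 1 was called higher and 4 were not called, with a median log2 fold change of -0.55. Of 19 S-phase genes 7 were called lower, 2 were called higher and 10 were not called, with a median of -0.17. Over all genes tested 28.6% were called lower and 28.4% were called higher, with a median of 0.0011, against 82.8% of mitotic and 36.8% of S-phase genes called lower. The S-phase share called lower was thus near that of all genes. Called higher were 3.45% of mitotic and 10.5% of S-phase genes. Every knockout sample lay below every wild-type sample for 26 mitotic and 8 S-phase genes, and above for 1 and 2, where the shares over all genes were 32.5% and 31.9%. The difference between the 2 classes is a description and was not tested.

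**Figure D1:**
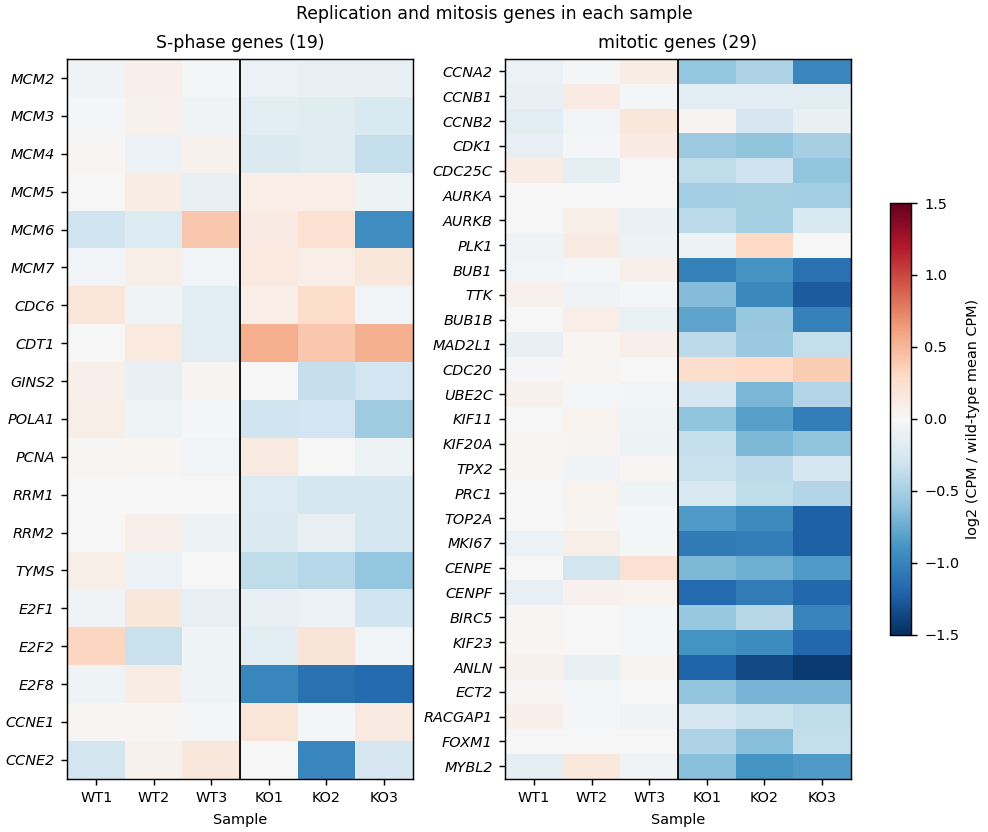
Colour gives the log2 ratio of each sample's CPM to the wild-type mean of that gene, for 19 S-phase and 29 mitotic genes (rows) in 3 wild-type and 3 knockout samples (columns). Most mitotic genes are blue in all 3 knockout samples, while CDC20 is red. Among S-phase genes E2F8 is blue in all 3, with TYMS and POLA1 paler, MCM6 and CCNE2 are blue in 1 sample each, and CDT1 is red.

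The same division appeared in summed levels and in single samples. Summed over the 29 mitotic genes, FPKM was 175.5, 178.4 and 176.5 in wild type and 127.2, 121.0 and 118.3 in knockout, which is 176.8 ± 1.49 against 122.2 ± 4.53 (SD, n = 3). Summed over the 19 S-phase genes, FPKM was 246.7, 247.2 and 235.9 in wild type and 233.8, 226.6 and 209.2 in knockout, which is 243.3 ± 6.401 against 223.2 ± 12.7 (SD, n = 3). Neither sum overlapped between groups, and the gap was the wider for mitotic genes. The S-phase sums came close, at 235.9 in WT3 and 233.8 in KO1. MCM4 made up part of that gap, with mean FPKM of 25.6 in wild type and 19.4 in knockout. The length that its counts and FPKM together imply was 1.13 times longer in knockout. The median mitotic gene stood at -0.54, -0.59 and -0.60 on the log2 scale relative to the wild-type mean in KO1, KO2 and KO3, and the median S-phase gene at -0.08, -0.11 and -0.23. KO3 had the lowest knockout value for 16 of 29 mitotic and 11 of 19 S-phase genes.

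Markers of cell types also differed between the groups, and their counts stand beside 28.6% of all genes called lower and 28.4% called higher. Cardiomyocyte markers were abundant in both, with TNNT2 at 1254 FPKM in wild type and 406.4 in knockout. All 17 of them were called lower, and their summed FPKM was 12280 to 12689 in wild type and 4365 to 4709 in knockout. Of 16 fibroblast markers 12 were called higher and 3 lower (summed FPKM 2235 to 2274 against 3146 to 3631), and of 12 tested endothelial markers 10 were higher and 1 lower (41.5 to 43.3 against 79.5 to 89.3). Of 14 smooth muscle and pericyte markers 9 were lower and 5 higher (2027 to 2134 against 1630 to 1768), of 12 epicardial markers 3 were lower and 5 higher (176 to 185 against 152 to 182, with the share called lower near that of all genes), and of 13 endoderm markers 1 was lower and 9 higher (244 to 280 against 302 to 404). Pluripotency markers were low in both groups, with POU5F1 at 0.29 FPKM in wild type and 0.50 in knockout and SOX2 at 0.077 and 0.080. Of 12 such markers 5 had too few counts to be tested, and 4 of the other 7 were lower (summed FPKM 6.51 to 6.76 against 3.17 to 3.46). The part of these differences in the levels of the replication and mitosis genes was not tested. The marker lists share genes: SOX17 counts as endothelial and endoderm, and TCF21 as fibroblast and epicardial.

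Promoter sequences of the genes show a feature that the choice of genes did not use. The transcription of late cell cycle genes is known to depend on the cell cycle genes homology region (CHR), which binds the DREAM complex and its MYBL2 and FOXM1 containing relatives, often near a CCAAT box bound by NF-Y. Genes of S phase more often carry sites for E2F factors. Windows from 250 bases before to 50 bases after the RefSeq gene start on GRCh38.p14 were matched for 36 of the 48 genes (15 S-phase and 21 mitotic), the others being MCM4, MCM5, E2F8, CCNE2, AURKA, AURKB, TTK, UBE2C, TPX2, BIRC5, RACGAP1 and FOXM1. On both strands CHR was searched as TTTGAA and in the variant form TTTAAA, and the CCAAT box by its own letters. E2F-type sites were searched as TTCCCGC, in the related form TTGGCGC, in the related form TTGCCGC, and in the related form TTCGCGC. Matches of different motifs may overlap. CHR letters were found in 17 of 21 mitotic promoters (81.0%), in 2 of 15 S-phase promoters (13.3%) and in 17.9% of the 12184 promoters of tested genes. E2F-type letters were found in 5 of 21 mitotic (23.8%), 14 of 15 S-phase (93.3%) and 18.9% of all these promoters. CCAAT was found in 76.2% of mitotic, 66.7% of S-phase and 36.4% of all these promoters. CHR and CCAAT stood together in 14 of 21 mitotic promoters (66.7%), 1 of 15 S-phase promoters (6.67%) and 7.21% of all these promoters.

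**Figure D2:**
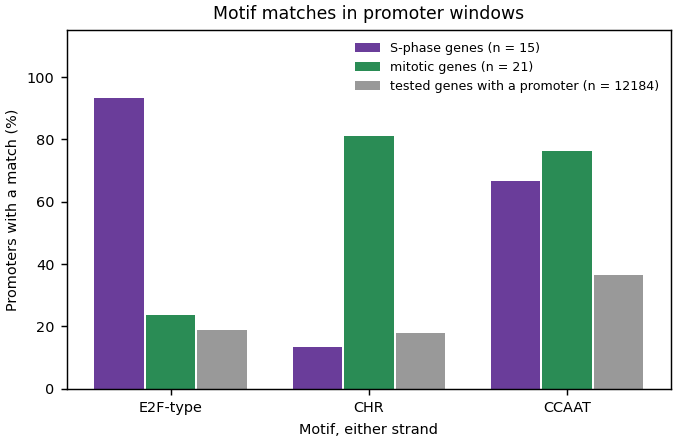
Bars give the share of promoter windows with at least 1 match on either strand, for 15 S-phase genes, 21 mitotic genes and the 12184 tested genes with such a window. E2F-type matches are most frequent in S-phase promoters at 93.3% and CHR matches in mitotic promoters at 81.0%.

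CHR letters were present in mitotic genes that fell, rose or were not called. Of 17 mitotic genes with CHR letters 13 were called lower, and of 4 without them 3 were called lower, with median log2 fold changes of -0.66 and -0.72, where 28.6% of all genes were called lower. Only TTTGAA and TTTAAA were searched, in the window at the RefSeq gene start. The 4 genes without them may hold another form or a CHR elsewhere, so this split cannot compare genes with and without a CHR. The promoters of 5 mitotic genes are shown because they span the outcomes. ANLN and KIF23 fell, PLK1 was not called and CDC20 rose, and all 4 hold CHR letters. BUB1 fell and holds neither TTTGAA nor TTTAAA. The promoters are given on the gene's strand, 5′ to 3′, with matches in capitals.
ANLN, chr7:36389612-36389911, plus strand: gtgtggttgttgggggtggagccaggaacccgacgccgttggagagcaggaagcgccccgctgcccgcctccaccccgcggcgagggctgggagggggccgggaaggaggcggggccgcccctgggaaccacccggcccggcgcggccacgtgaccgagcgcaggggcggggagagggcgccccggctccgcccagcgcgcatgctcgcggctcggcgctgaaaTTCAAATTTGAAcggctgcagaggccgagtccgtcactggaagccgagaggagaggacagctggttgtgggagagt
KIF23, chr15:69414099-69414398, plus strand: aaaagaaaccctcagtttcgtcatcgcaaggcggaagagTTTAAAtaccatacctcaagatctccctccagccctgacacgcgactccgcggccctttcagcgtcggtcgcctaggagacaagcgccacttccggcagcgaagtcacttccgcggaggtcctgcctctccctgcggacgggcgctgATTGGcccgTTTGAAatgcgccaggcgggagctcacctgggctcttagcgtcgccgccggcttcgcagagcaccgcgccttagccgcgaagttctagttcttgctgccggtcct
BUB1, chr2:110678014-110678313, minus strand: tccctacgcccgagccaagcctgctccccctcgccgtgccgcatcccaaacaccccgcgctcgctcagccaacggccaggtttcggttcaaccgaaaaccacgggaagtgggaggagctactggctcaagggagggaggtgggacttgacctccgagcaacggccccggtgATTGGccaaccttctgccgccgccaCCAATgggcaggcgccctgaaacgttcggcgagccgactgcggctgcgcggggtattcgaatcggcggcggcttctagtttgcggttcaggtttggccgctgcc
PLK1, chr16:23678639-23678938, plus strand: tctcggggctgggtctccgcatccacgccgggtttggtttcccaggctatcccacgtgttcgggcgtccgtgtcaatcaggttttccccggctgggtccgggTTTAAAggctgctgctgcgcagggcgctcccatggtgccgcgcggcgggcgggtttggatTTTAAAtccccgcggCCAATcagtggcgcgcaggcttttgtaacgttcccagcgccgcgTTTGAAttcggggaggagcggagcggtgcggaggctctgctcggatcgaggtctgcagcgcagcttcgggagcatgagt
CDC20, chr1:43358731-43359030, plus strand: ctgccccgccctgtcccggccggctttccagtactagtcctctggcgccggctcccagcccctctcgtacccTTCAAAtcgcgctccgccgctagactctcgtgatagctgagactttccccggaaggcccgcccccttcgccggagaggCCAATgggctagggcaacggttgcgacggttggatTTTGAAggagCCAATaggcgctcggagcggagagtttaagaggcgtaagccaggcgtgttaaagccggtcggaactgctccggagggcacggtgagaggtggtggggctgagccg
In ANLN a pair of CHR matches adjoin at 26 and 20 bases before the start. In PLK1 the nearest of 3 CHR matches begins 29 bases before the start, and in CDC20 the nearest of 2 begins 65 bases before it. A match describes the letters of the window and is not evidence of binding. The lack of a match is likewise not evidence that a gene has no CHR.

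E2F-type letters were likewise present in S-phase genes of every outcome. Of 14 S-phase genes with them 5 were called lower, 2 higher and 7 were not called, where 28.6% of all genes were called lower and 28.4% higher, and the 1 gene without them was not called. MCM3, which fell, and CDT1, which rose, are shown because both hold such letters within 50 bases of the start.
MCM3, chr6:52284693-52284992, minus strand: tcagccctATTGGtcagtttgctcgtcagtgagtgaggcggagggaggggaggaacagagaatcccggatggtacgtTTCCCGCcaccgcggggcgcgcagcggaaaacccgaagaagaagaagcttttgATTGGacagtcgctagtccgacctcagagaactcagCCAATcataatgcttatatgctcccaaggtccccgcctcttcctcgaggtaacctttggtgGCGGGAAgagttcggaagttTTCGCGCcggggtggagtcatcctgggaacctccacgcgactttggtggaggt
CDT1, chr16:88803539-88803838, plus strand: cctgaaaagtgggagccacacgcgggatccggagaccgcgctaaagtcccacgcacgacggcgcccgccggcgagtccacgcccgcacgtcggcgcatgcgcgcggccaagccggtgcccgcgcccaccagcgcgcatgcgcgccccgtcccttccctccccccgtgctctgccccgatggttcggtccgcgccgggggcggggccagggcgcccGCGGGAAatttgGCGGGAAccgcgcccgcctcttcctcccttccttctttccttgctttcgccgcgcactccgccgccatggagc

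The fold changes are taken next by role, beginning with the replication genes. Counts by role are to be read beside the 28.6% of all genes called lower and 28.4% called higher. MCM2 to MCM7 form the ring-shaped helicase that unwinds DNA at the fork, and its subunits did not move together. MCM3 was at 109.8, 115.8 and 107.2 CPM in wild type and at 99.5, 97.9 and 94.4 CPM in knockout, and changed by -0.19 ± 0.050 on the log2 scale (SE; adjusted p = 0.00577). MCM4 was at 92.7, 86.4 and 95.4 CPM in wild type and at 78.8, 80.6 and 71.4 CPM in knockout, a change of -0.25 ± 0.059 (adjusted p = 0.00313). The groups did not overlap for either gene, but both changes were small. Of all genes tested 32.5% likewise lay lower in every knockout sample. MCM7 rose slightly, from 64.5, 70.5 and 64.5 CPM to 73.7, 71.2 and 74.5 CPM, a change of 0.14 ± 0.053 (adjusted p = 0.0422). This call was lost in 8 of 18 alternative analyses, among them DESeq2 (adjusted p = 0.0829) and leaving out WT1 (0.215), WT3 (0.176), KO1 (0.105) or KO3 (0.0906).

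The other 3 helicase subunits were not called. MCM2 lay lower in every knockout sample (37.1 to 37.9 CPM against 38.7 to 42.3), yet its change of -0.10 had an adjusted p of 0.157 and an approximate 95% interval of -0.22 to 0.013. MCM5 overlapped between groups, with an interval of -0.09 to 0.18. MCM6 was at 7.51, 8.06 and 12.2 CPM in wild type and at 10.1, 10.8 and 4.84 CPM in knockout, so that both groups spread widely and overlapped (interval -0.83 to 0.61). Per length MCM6 was also far from its partners in the ring, at 1.47 to 3.43 FPKM against 10.55 to 36.7 FPKM for the other 5 subunits over all samples. The cause of this low estimate was not tested.

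Licensing and fork factors went in both directions. CDT1, which loads the helicase together with CDC6, was at 9.03, 9.99 and 8.07 CPM in wild type and at 13.1, 11.99 and 13.1 CPM in knockout. All knockout samples lay above wild type, with a change of 0.50 ± 0.11 (adjusted p = 0.00164), the largest rise among the 48 genes. CDC6 was at 18.4, 15.6 and 14.6 CPM against 17.4, 19.6 and 15.7 CPM, and the groups overlapped (adjusted p = 0.378). The length that counts and FPKM together imply for CDC6 was 1.23 times longer in knockout, so its level compared by FPKM had the opposite sign (4.20 ± 0.35 against 3.81 ± 0.68, SD, n = 3). POLA1, the catalytic subunit of the polymerase that starts new strands, was at 54.7, 49.1 and 50.8 CPM against 41.9, 42.1 and 35.6 CPM. The groups did not overlap, with a change of -0.37 ± 0.072 (adjusted p = 0.000819). PCNA, the sliding clamp that holds polymerases on DNA, overlapped between groups at 44.5 to 46.7 CPM against 43.6 to 50.45 CPM, with an interval of -0.10 to 0.15. GINS2, a subunit of the complex that activates the helicase, also overlapped (change -0.21 ± 0.12, adjusted p = 0.167).

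All 3 genes of nucleotide supply were lower in every knockout sample, as were 32.5% of all genes tested. TYMS, thymidylate synthase, was at 44.1, 38.9 and 41.3 CPM in wild type and at 31.7, 30.7 and 27.7 CPM in knockout, a change of -0.46 ± 0.071 (adjusted p = 0.000127). RRM1, the large subunit of ribonucleotide reductase, was at 52.4, 52.0 and 52.3 CPM against 45.4, 43.7 and 43.7 CPM, a change of -0.24 ± 0.051 (adjusted p = 0.00164). RRM2, the small subunit, fell by 0.20 ± 0.079 on the log2 scale (adjusted p = 0.0442). The RRM2 call was lost in 10 of 18 alternatives, with adjusted p up to 0.174.

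Of the regulators of S-phase entry only E2F8 was called. E2F8, an atypical E2F that represses transcription, was at 15.4, 17.4 and 15.3 CPM in wild type and at 8.17, 7.38 and 7.14 CPM in knockout. Its level was 2.12-fold lower in knockout with no overlap (log2 fold change -1.08 ± 0.10, adjusted p = 1.71e-06). E2F8 was the only S-phase gene changed by 2-fold or more, where 1178 of 19558 tested genes were called lower by as much. E2F1, an activating E2F, was at 15.5 to 18.9 CPM against 13.7 to 15.8 CPM, and the groups overlapped (change -0.17, adjusted p = 0.16). E2F2 was low, at 0.52 to 0.83 FPKM over all samples, and its interval ran from -0.43 to 0.44. The E-type cyclins, which activate CDK2 at the start of S phase, overlapped between groups as well, with intervals of -0.12 to 0.32 for CCNE1 and -0.85 to 0.13 for CCNE2.

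**Figure D3:**
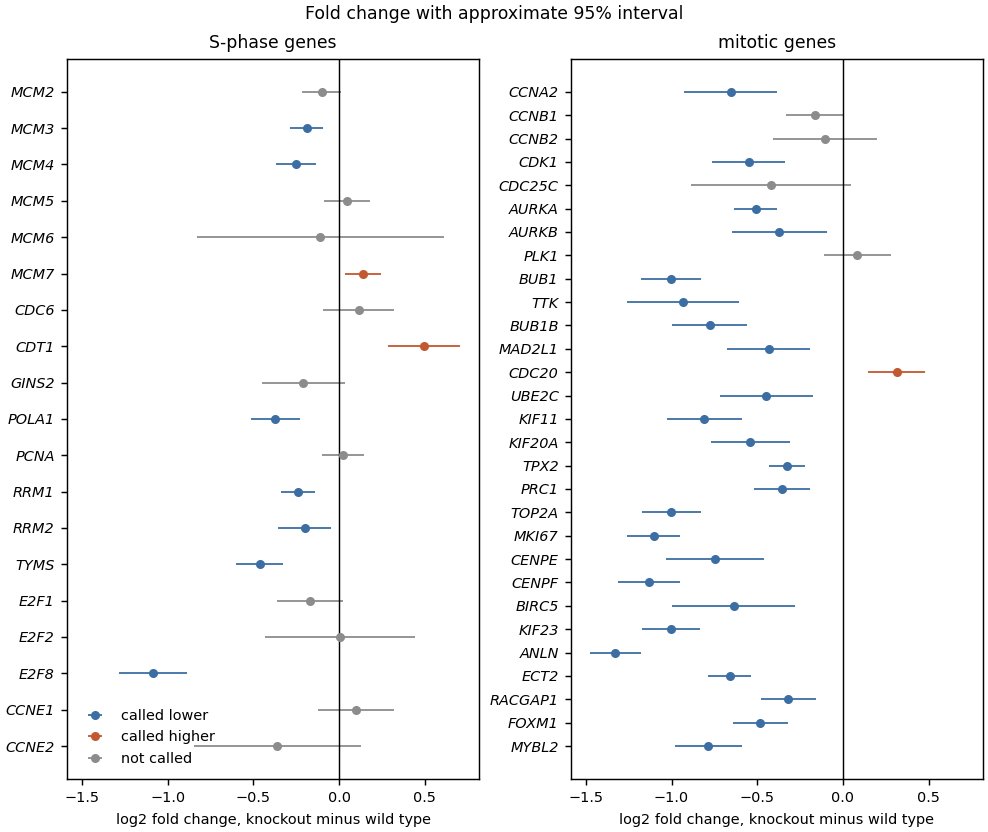
Points give the log2 fold change of each gene, knockout minus wild type, and bars the approximate 95% interval (n = 3 per group), with colour for the call at an adjusted p below 0.05. Mitotic genes lie left of 0 apart from CDC20 and PLK1, and the S-phase genes other than E2F8 lie between -0.46 and 0.50.

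Of the 29 mitotic genes 6 were called lower by 2-fold or more, where the count over all 19558 tested genes was 1178. These 6 were ANLN and KIF23 of cytokinesis, MKI67, CENPF and TOP2A of the chromosomes, and the kinase BUB1. ANLN, the anillin scaffold of the contractile ring, was at 56.5, 49.98 and 55.4 CPM in wild type and at 23.5, 21.1 and 19.9 CPM in knockout. It was 2.51-fold lower (log2 fold change -1.33 ± 0.075, adjusted p = 1.62e-08), the largest fall of the 48 genes. KIF23, a motor of the central spindle, was at 24.0, 23.3 and 23.1 CPM against 12.6, 12.2 and 10.3 CPM, a change of -1.002 ± 0.087 (adjusted p = 8.97e-07). RACGAP1, the partner of KIF23 in the centralspindlin complex, fell from 18.1, 16.7 and 16.5 CPM to 14.4, 13.5 and 13.2 CPM (-0.32 ± 0.083, adjusted p = 0.0055). ECT2, the exchange factor that centralspindlin recruits to activate RhoA at the cell equator, fell by 0.66 ± 0.064 on the log2 scale (adjusted p = 2.62e-06). None of these 4 genes overlapped between groups, and 32.5% of all genes tested likewise lay lower in every knockout sample.

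All 5 chromosome and centromere genes were called lower, beside 28.6% of all genes, with a median of -1.0015. MKI67, which encodes the proliferation antigen Ki-67 that coats mitotic chromosomes, was at 30.2, 34.0 and 31.7 CPM in wild type and at 15.3, 15.6 and 13.7 CPM in knockout (2.15-fold lower, adjusted p = 1.39e-07). TOP2A, the topoisomerase that untangles sister DNA, was at 37.1, 38.3 and 36.6 CPM against 20.8, 19.2 and 15.9 CPM (change -1.0015 ± 0.087, adjusted p = 8.94e-07). CENPF, a kinetochore protein, was at 17.5, 19.9 and 19.7 CPM against 8.45, 9.18 and 8.41 CPM (change -1.13 ± 0.092, adjusted p = 5.00e-07). In each of these 3 genes the highest knockout sample was well below the lowest wild-type sample. CENPE, a kinetochore motor, changed by -0.75 ± 0.15 (adjusted p = 0.000848) and BIRC5, the survivin subunit of the chromosomal passenger complex, by -0.64 ± 0.18 (adjusted p = 0.00988).

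All 4 spindle genes were called lower, beside 28.6% of all genes, with a median of -0.45. KIF11, the motor that pushes the spindle poles apart, was at 16.4, 17.0 and 15.6 CPM in wild type and at 10.8, 9.27 and 7.94 CPM in knockout (-0.81 ± 0.11, adjusted p = 5.45e-05). KIF20A, a motor of the central spindle, fell by 0.54 ± 0.12 (adjusted p = 0.00172) and PRC1, which bundles the microtubules there, by 0.35 ± 0.084 on the log2 scale (adjusted p = 0.00314). TPX2, which activates AURKA on spindle microtubules, had the highest level of the mitotic genes per length. It was at 24.3, 22.95 and 23.5 FPKM in wild type and at 19.1, 17.9 and 19.7 FPKM in knockout, a change of -0.33 ± 0.054 (adjusted p = 0.000219).

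Among the mitotic kinases 4 of 5 were called lower, beside 28.6% of all genes. BUB1, a checkpoint kinase of the kinetochore, was at 19.5, 19.6 and 21.1 CPM in wild type and at 9.90, 10.8 and 9.26 CPM in knockout (-1.005 ± 0.089, adjusted p = 1.06e-06). AURKA, a kinase of the spindle poles, was at 27.8, 27.8 and 27.8 CPM against 19.5, 19.6 and 19.5 CPM, with almost no spread in either group (-0.51 ± 0.064, adjusted p = 2.43e-05). TTK, the kinase that starts the spindle checkpoint, fell by 0.93 ± 0.17 (adjusted p = 0.000421). AURKB, the kinase of the chromosomal passenger complex, changed by -0.37 ± 0.14 (adjusted p = 0.0404), a call lost in 8 of 18 alternatives, with adjusted p up to 0.158. PLK1, a kinase needed for entry into mitosis, was at 24.7, 27.7 and 24.2 CPM against 24.2, 31.45 and 25.5 CPM, with overlap and an interval of -0.11 to 0.28. By FPKM every knockout sample of PLK1 was below every wild-type sample (4.74 to 4.87 against 4.93 to 5.73), since the implied length was 1.19 times longer in knockout, and neither direction passed a test.

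Genes of the spindle checkpoint and of the anaphase-promoting complex, the ubiquitin ligase that ends mitosis, held the only mitotic gene that rose. BUB1B, which encodes the checkpoint protein BubR1, was at 18.3, 19.8 and 17.3 CPM in wild type and at 10.7, 12.5 and 9.12 CPM in knockout (-0.78 ± 0.11, adjusted p = 7.85e-05). CDC20, the activator of the ligase and the protein that the checkpoint holds back, was at 11.8, 12.1 and 11.99 CPM against 14.3, 14.7 and 15.6 CPM. All knockout samples lay above wild type for CDC20, with a change of 0.31 ± 0.084 (adjusted p = 0.00695). MAD2L1, which binds CDC20 in the checkpoint, fell by 0.43 ± 0.12 (adjusted p = 0.00959) and UBE2C, the E2 enzyme of the ligase, by 0.45 ± 0.14 on the log2 scale (adjusted p = 0.0147). Both missed the threshold with DESeq2, at adjusted p of 0.0509 and 0.0555.

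The cyclins and CDK1 were split. With CDC25C, 2 of 5 genes were called lower (40%), beside 28.6% of all genes. CDK1 was at 10.4, 11.3 and 12.4 CPM in wild type and at 7.75, 7.47 and 8.03 CPM in knockout (-0.55 ± 0.11, adjusted p = 0.000899). CCNA2, the cyclin that works from S phase into early mitosis, was at 9.88, 10.3 and 11.4 CPM against 7.05, 7.655 and 5.36 CPM (-0.66 ± 0.14, adjusted p = 0.00151). Neither gene overlapped between groups, and 32.5% of all genes tested likewise lay lower in every knockout sample. The B-type cyclins, the partners of CDK1 in mitosis, were not called. CCNB1 was at 15.2, 17.9 and 16.2 CPM against 14.8, 14.7 and 14.6 CPM, without overlap but with an adjusted p of 0.119, and CCNB2 overlapped, with an interval of -0.41 to 0.20. CDC25C, a phosphatase that activates CDK1, had the lowest mean level per length of the mitotic genes in wild type, at 0.75 to 0.98 FPKM, and its change of -0.42 ± 0.24 was not called (adjusted p = 0.149).

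Both transcription factors of the late cycle were called lower, beside 28.6% of all genes. MYBL2, which joins the MuvB core to activate mitotic genes, was at 20.98, 25.7 and 22.2 CPM in wild type and at 14.9, 12.4 and 12.7 CPM in knockout (-0.79 ± 0.099, adjusted p = 2.56e-05). FOXM1, which joins the same complex later, was at 23.4, 23.4 and 23.5 CPM against 16.96, 15.03 and 18.3 CPM (-0.48 ± 0.082, adjusted p = 0.000296). The groups were apart for both genes, and 32.5% of all genes tested likewise lay lower in every knockout sample.

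For a few genes the implied length shifted in the other direction. It was 0.85 times as long in knockout for CENPF and 0.78 times for KIF11, so their levels by FPKM differed by less, at 1.89 ± 0.14 against 1.05 ± 0.18 for CENPF and 3.36 ± 0.14 against 2.53 ± 0.49 for KIF11 (SD, n = 3). Both remained apart between groups on that scale.

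**Figure D4:**
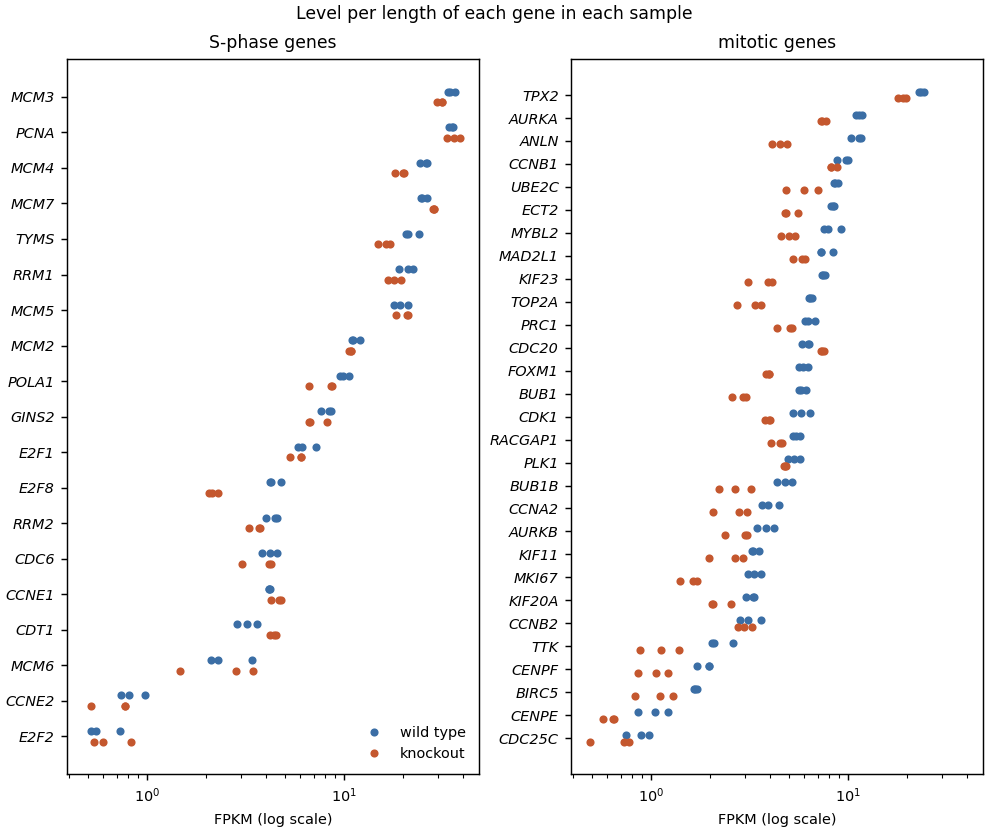
Points give FPKM on a log axis for each gene in the 3 wild-type and 3 knockout samples, ordered by the wild-type mean. S-phase genes reach from MCM3 and PCNA at about 35 FPKM in wild type down to E2F2 at 0.52 to 0.73 FPKM, and mitotic genes from TPX2 at 22.95 to 24.3 down to CDC25C at 0.75 to 0.98.

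The size of the falls ran along with the base composition of the transcripts, and among mitotic genes also with their length. Across the 29 mitotic genes the fold change had a Spearman correlation of -0.64 with the length of the longest GENCODE transcript and of 0.47 with its GC content, and across the 19 S-phase genes of -0.053 and 0.52. These describe genes measured in the same 6 libraries. A trend of the same signs, weaker than in the mitotic genes, ran through all 16434 genes with a value. There the correlations were -0.17 with length and 0.21 with GC content. The median log2 fold change was -0.22 in the lowest of 10 equal bins of GC content and 0.16 in the highest. In an analysis added after the data were seen, the trend was removed in each sample. Of the mitotic genes 23 were then called lower and 0 higher, with a median of -0.54, and of the S-phase genes 8 were called lower and 1 higher, with a median of -0.15, while 28.1% and 32.1% of all these genes were called lower and higher. MKI67 moved from -1.10 to -0.88, CENPF from -1.13 to -0.86, TOP2A from -1.0015 to -0.77 and ANLN from -1.33 to -1.13. MAD2L1, CDC20, MCM7 and RRM2 were no longer called. MCM2 (-0.17, adjusted p = 0.0108) and E2F1 (-0.29, adjusted p = 0.017) became called lower. The longest transcript can be far from the length that counts and FPKM together imply, which limits this removal for single genes. In wild type MAD2L1 had 5468 bases against an implied 1036, and PLK1 2227 against 4758.

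**Figure D5:**
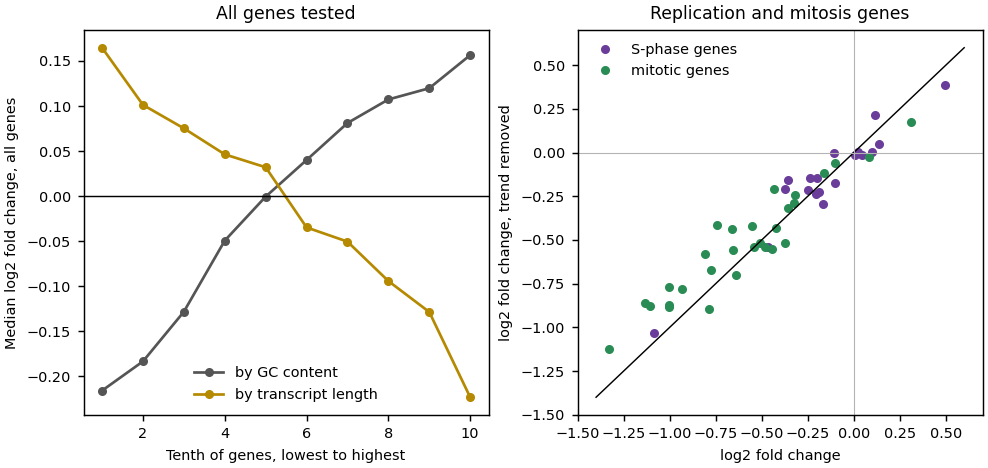
The left panel gives the median log2 fold change of all genes in 10 equal bins of GC content and of transcript length, and the right panel each replication or mitosis gene before (horizontal axis) and after (vertical axis) the trend was removed, with the line of equality. The left panel runs from -0.22 to 0.16 by GC, and most mitotic genes with large falls lie above the line at the right.

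Other genes of the same pathways, none of them among the 48, were counted in lists by function, to be read against the 28.6% of all genes called lower and 28.4% called higher. Spindle and cytokinesis genes resembled the mitotic genes above, with 25 of 32 called lower (78.1%), 0 higher and a median of -0.55. NUSAP1, a microtubule-bundling protein, went from 14.5 ± 1.22 to 7.35 ± 0.218 CPM and ASPM, a spindle pole protein, from 12.9 ± 0.340 to 6.53 ± 0.369 CPM (SD, n = 3). Condensin and cohesin genes were called lower in 14 of 19 (73.7%) and higher in 1, with NIPBL, the cohesin loader, and SMC2, a condensin subunit, lower by 0.63 and 0.69 on the log2 scale and the condensin II subunit NCAPH2 higher by 0.23. Kinetochore and centromere genes were called lower in 20 of 41 (48.8%) and higher in 2. Among them KNTC1 and ZWINT, of the checkpoint-recruiting layer of the kinetochore, changed by -0.66 and -0.67, while the checkpoint protein BUB3 changed by 0.33 and CENPP, a centromere protein, by 0.35.

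The lists of S-phase processes follow, beside the same 28.6% lower and 28.4% higher over all genes. Origin licensing and firing genes were called lower in 11 of 20 (55%) and higher in 1, where ORC6, of the origin recognition complex, and CDC7, the kinase that fires origins, changed by -0.80 and -0.74 and the helicase RECQL4 by 0.35. Replication fork enzymes were called lower in 11 of 31 (35.5%) and higher in 5 (16.1%), with a median of 0.025, so their share called lower was near that of all genes. POLE and RFC1, the leading-strand polymerase and the clamp loader, changed by -0.50 and -0.46, and the small polymerase subunits POLD4 and POLE3 by 0.73 and 0.24. Nucleotide synthesis genes were called lower in 3 of 17 (17.6%) and higher in 8 (47.1%), while all 3 supply genes among the 48 fell. SAMHD1, which breaks down nucleotides, changed by -0.54, while MTHFD2 of mitochondrial folate metabolism and CTPS1, a CTP synthase, changed by 0.61 and 0.36.

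Regulators of the cycle were called in both directions, beside the 28.6% lower and 28.4% higher over all genes. Genes of RB, E2F and DREAM were called lower in 6 of 15 (40%) and higher in 3 (20%), with RBL2 and LIN9 of the DREAM complex at -0.62 and -0.85. E2F7, the other atypical E2F, rose by 0.74 ± 0.14 on the log2 scale (adjusted p = 0.00062), opposite to E2F8, and E2F5 rose by 0.31. Checkpoint kinases and CDC25 phosphatases were called lower in 5 of 12 (41.7%) and higher in 1, where WEE1 and CHEK1, which hold CDK1 back, changed by -0.92 and -0.49 and CDC25B by 0.38. Ubiquitin ligase genes of APC/C and SCF were called lower in 8 of 22 (36.4%) and higher in 4 (18.2%). There ANAPC4 and ANAPC16 changed by -0.79 and -0.65, and ANAPC5 and the E2 enzyme UBE2S by 0.50 and 0.59. D cyclins and CDK inhibitors act at entry into the cycle, and their list also holds the kinase CDK6. Genes of that list were called higher in 8 of 12 (66.7%) and lower in 2. CCND1 rose from 111.5 ± 4.14 to 484.4 ± 39.3 CPM and CDKN1A, the p21 inhibitor, from 149.2 ± 4.06 to 415.6 ± 24.8 CPM, while CDK6 and CDKN1B changed by -1.27 and -0.31.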

How the data were processed

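RNA of 6 samples, 3 per genotype, was compared. Per the labels, polyadenylated RNA was selected with oligo-dT and copied with random primers. The authors deposited 1 table of estimated counts, of which 10.9 to 12.0% of the values above 0 were exactly whole as deposited, and expression values without a stated unit, read here as FPKM since dividing counts by them and by library totals gave gene lengths that were stable across samples (coefficient of variation under 2%) in 51.2% of 7777 genes at or above 5 FPKM throughout. Per the submitters' processing notes the build was hg38, with no role stated. The sources used here do not give the aligner, counter, annotation or strandedness. Reads are shared out between genes in such estimates, which makes genes that have near-identical copies or overlapping neighbours uncertain beyond their p-values.

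Estimated counts were rounded to whole numbers, filtered with filterByExpr (minimum count 10, total 15), scaled by TMM and fitted in edgeR 4.0.16 (R 4.3.3; robust quasi-likelihood, genotype alone, Benjamini-Hochberg adjustment, threshold 0.05). Standard errors derive from the F statistic and are approximate. Unnamed gene models took 12.9 to 14.9% of counts and stayed in the fit. The largest such model in each sample alone took 12.5 to 13.1% in wild type and 11.2 to 11.6% in knockout. The common biological coefficient of variation was 0.0791. Chi-square per degree of freedom between replicates was 3.37 to 6.81, above sampling noise. The test was checked on simulated data with known log2 changes. It called 18 of 40 genes at -0.5, 24 of 40 at 0.5, 30 of 40 at -1 and 8 of 18987 with no change. A gene that was not called may thus still differ.

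All 48 members and ADPRHL1 were named, and in each pathway list up to 2 called falls and 2 called rises of smallest p, except that the result of 1 gene is not reported here, although counts include it. The members, gene lists and tests were chosen with earlier results of these data known. The alternatives were scaling by RLE, by upper quartile or by totals, no filter or a mean of at least 1 CPM, named genes only, the replicate number as a block, DESeq2 1.42.0, limma-voom and limma 3.58.1 on log2(FPKM + 1) and log2(FPKM + 0.1), each sample left out in turn, and CCNA2 and MYBL2 counted as S-phase with E2F8 as mitotic. Removal of the GC and length trend (loess, span 0.3) was added after the data were seen. Promoters are from RefSeq, and transcript lengths and GC content from GENCODE. Tables were handled in Python 3.11.15 with pandas 2.3.3.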

Additional observations from a re-analysis of the deposited data

How the results depend on the processing

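Of 24 mitotic genes called lower, 21 stayed called in every alternative that tested them (CENPE, CDC25C, E2F2 and CCNE2 were below the filter of the FPKM fits), as did 5 of the 7 S-phase genes called lower and CDT1 among those called higher. AURKB, MAD2L1, UBE2C, RRM1, RRM2, MCM7 and CDC20 lost the call in at least 1. Mitotic genes called lower numbered 22 to 24 with 1 sample left out and 21 to 24 in the other alternatives, and S-phase genes called lower 6 to 7 and 6 to 8. S-phase genes called higher numbered 1, not 2, with no low-count filter, with DESeq2, with the GC and length trend removed and with the replicate block, and 1 to 2 with 1 sample left out. With the trend removed 0 mitotic genes were called higher. The mitotic median was -0.52 with upper-quartile factors, -0.58 with no low-count filter, -0.47 on log2(FPKM + 1), -0.58 on log2(FPKM + 0.1), and -0.64 to -0.52 with 1 sample left out. The S-phase median ran from -0.21 to -0.11 with 1 sample left out. The cause of these shifts was not tested.

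Changes of sign were found only in genes that were not called. With 1 sample left out MCM5 ran from -0.017 to 0.10, MCM6 from -0.31 to 0.17, PCNA from -0.039 to 0.069, E2F2 from -0.14 to 0.18 and PLK1 from -0.042 to 0.15. With the trend removed MCM5 was at -0.016, MCM6 at 7.57e-05, E2F2 at -0.013 and PLK1 at -0.026. CDC6 was at -0.12 on log2(FPKM + 1) and at -0.15 on log2(FPKM + 0.1), and PLK1 at -0.12 and -0.14. With no low-count filter PCNA was at -0.0042 and E2F2 at -0.023. GINS2 was called lower only without KO1 (adjusted p = 0.0481).

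The replicate numbers showed no clear pairing of the samples. The deviations of same-numbered samples correlated at 0.045, 0.037 and -0.055, and those of differently numbered samples at -0.080 to 0.043. These values cannot exclude a pairing. With the replicate block 6 S-phase genes were called lower and 23 mitotic genes lower and 1 higher. At this depth E2F2, CCNE2 and CDC25C, all below 1 FPKM, have intervals too wide to show a small change.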
